A study of Chlorocebus sabaeus with 3 samples.

Results

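Splicing factors and heterogeneous nuclear ribonucleoproteins (hnRNPs) are the proteins that recognise, package and cut out introns. The genes described here are those whose deposited name belongs to the SRSF, HNRNP, SNRP, SF3A, SF3B or U2AF families, without SNRPN, an imprinted gene. This name rule found 52 genes of the 33994 in each file. They comprised 11 SR proteins, 20 hnRNPs, 7 Sm core proteins, 2 U1 and 2 U2 small nuclear ribonucleoprotein (snRNP) proteins, 8 SF3A and SF3B subunits and 2 U2AF subunits.

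The RNA was cell-free RNA from amniotic fluid supernatant of the vervet monkey (Chlorocebus sabaeus), an Old World monkey. There were 3 libraries, 1 per pregnancy outcome: stillborn (labelled male), spontaneous abortion (sex labelled NA) and alive (labelled female). The labels give neither gestational age nor a treatment, and all 3 fluids were processed alike. With 1 library per status, each comparison sets one library against another without a test or replicate check, and every interval is a 95% interval that covers counting error only.

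Splicing runs on the spliceosome, whose snRNPs each carry an RNA that, in most of them, is wrapped by a ring of Sm proteins. U1 reads the 5′ splice site, U2AF the polypyrimidine tract and AG of the 3′ splice site, and U2, with SF3A and SF3B, the branch point. SR proteins bind exonic enhancers and promote the use of nearby sites, whereas hnRNPs coat nascent transcripts and often counteract them.

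The libraries held 17749954 (stillborn), 29926352 (spontaneous abortion) and 20220899 (alive) assigned reads, recovered from the deposited RPKM, which are reads per kilobase of gene scaled to depth. Levels are RPKM as deposited. Wherever 3 values follow a gene they stand in the order stillborn, spontaneous abortion, alive. Ratios compare recovered reads scaled by TMM, the trimmed mean of M-values. Of the epithelial and fibroblast markers examined, KRT19 (RPKM 316, 434 and 554) and VIM (3212, 3344 and 2231) were the most abundant. Others were far lower, such as EPCAM at 12.5, 5.69 and 5.97 and COL1A1 at 4.34, 8.02 and 4.41. The erythroid genes ALAS2 and SLC4A1 were at or near 0.

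Transcripts of the 52 genes made up a smaller share of the stillborn library than of the others. They held 0.365% of its reads (0.362% to 0.368%), against 0.502% (0.4996% to 0.505%) for spontaneous abortion and 0.586% (0.583% to 0.589%) for alive. Their summed RPKM was 1130.1, 1404 and 1693. The 3 shares lay farther apart than their counting error, and the spread between animals of one status was not measured. In cell-free RNA, such a share cannot tell fewer cells of a type from less RNA per cell or from other causes, and none was tested.

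Levels differed widely between members. SRSF9, an SR protein of alternative splice site choice, was the most abundant at a mean RPKM of 155 ± 1.86 (SD, n = 3 libraries). This SD spans the 3 outcomes and is no replicate error. SNRPD2, a subunit of the Sm ring, followed at 121 ± 31.7 and SRSF3, the smallest SR protein, at 112 ± 18.04. Their order changed between libraries, at 92.3 against 129 for spontaneous abortion and 155 against 115 for alive. SNRPD3 at 66.8 ± 23.2, SF3B6 at 65.6 ± 7.07 and SNRPD1 at 62.7 ± 13.7 came next, with overlapping values over the 3 libraries. At the low end stood SNRPA at 1.12 ± 0.798, U2AF2 at 0.895 ± 0.347 and SF3A2 at 0.855 ± 0.256, whose values overlapped as well. HNRNPCL1, an intronless relative of HNRNPC, had 2 reads for spontaneous abortion and 0 in the other libraries, where a count of 0 allows up to 3, so no ratio is given.

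The order of levels between genes rests on the gene lengths by which the authors divided. Those recovered from the values ran from 469 bases for SNRPF to 27288 for HNRNPF and 28391 for SRSF10. For 7 of the 52 members, among them SRSF2, SRSF10, HNRNPF and HNRNPA2B1, and for 2720 of 17474 genes with a RefSeq name, this length is greater than the whole gene's span in the RefSeq table, whose assembly may not be the authors'. The RPKM levels of these genes and the order of levels hold only for the authors' lengths. In the stillborn library SRSF9 and SRSF10 had 3192 and 1974 reads, yet stood at RPKM 155 and 3.92. The length cancels when a gene is compared between libraries.

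**Figure D1:**
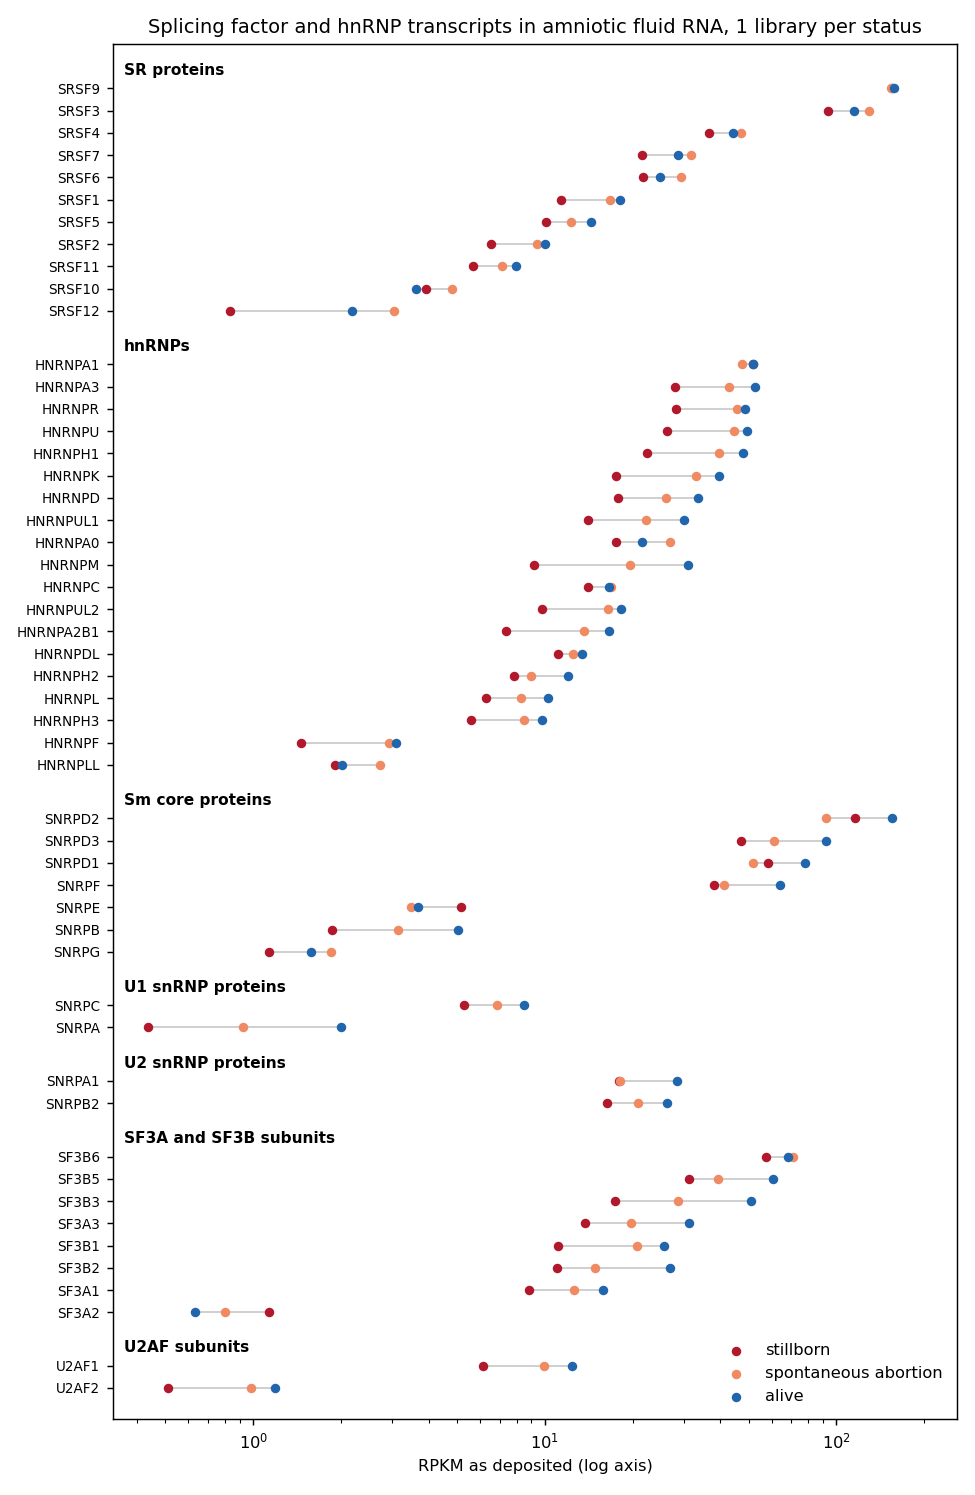
RPKM as deposited (log axis) of 51 members in the stillborn, spontaneous abortion and alive library, 1 point per library, by role and from high to low mean; the grey line joins the lowest and highest library, and HNRNPCL1 is left out because it was at 0 in 2 libraries. The stillborn point is the leftmost for most hnRNPs and SF3 subunits, while the 3 points of SRSF9 and of HNRNPA1 nearly coincide.

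The first comparison asks how the stillborn library differed from the alive one. Splicing factors and hnRNPs were mostly lower in the stillborn library. Over the 49 members whose mean RPKM reached 1, the median log2 ratio on the log2(RPKM + 0.1) scale was -0.54, beside -0.01 over all 10229 such genes. Of the 49, 44 had a ratio below 1, beside 50.9% of all genes.

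Genes were called apart if the ratio reached 2-fold, its interval excluded 1 and the higher library had 30 reads or more. Of 51 members with that many reads, 11 were apart as lower, beside 12.5% of the 13398 genes tested, and 1 as higher, beside 13%. Among genes whose mean RPKM reached 1, 10 of 49 members were apart as lower and 0 as higher, beside 9.14% and 9.74% of all such genes.

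Scaling on total recovered reads in place of TMM moved the median of all genes to -0.18 and that of the members to -0.71. The calls over all genes went from 1747 higher and 1674 lower to 1419 and 2191. Of the members, 15 were then apart as lower and 0 as higher, beside 16.4% and 10.6% of all tested genes.

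Subunits of SF3A and SF3B, which anchor U2 at the branch point, had a median log2 ratio of -1.02 over 7 members, all 7 below 1. Of the 8 tested, 4 were apart as lower and 1 as higher, or 50% and 12.5%, beside 12.5% and 13% of all tested genes. Only subunits that fit the name rule are counted here. The SF3B subunit PHF5A, listed with the other spliceosome proteins, had a ratio of 0.802 (0.706 to 0.911). SF3B3, a scaffold of the SF3B core, was at RPKM 17.5, 28.7 and 50.9. The alive library stood well above both losses, and the stillborn one was 2.61-fold lower (2.46 to 2.76). SF3B2, another SF3B subunit, was at 11.0, 14.9 and 26.9 and 2.19-fold lower (2.04 to 2.34), with the same gap below the alive library.

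SF3B1, the subunit that clasps the branch point and is often mutated in myeloid neoplasms, was at 11.1, 20.7 and 25.6 and 2.07-fold lower (1.97 to 2.16). Here the spontaneous abortion lay nearer to the alive library. SF3A3 was at 13.8, 19.7 and 31.2 and 2.03-fold lower (1.84 to 2.24). SF3A1, at 8.80, 12.6 and 15.9, had a ratio of 0.621 (0.569 to 0.676). SF3B5, at 31.3, 39.2 and 60.4, had one of 0.578 (0.513 to 0.651). All 4 kept the order of SF3B3, with stillborn lowest and alive highest.

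SF3B6, which contacts the branch point adenosine, differed little at RPKM 57.6, 70.9 and 68.2. With TMM scaling its ratio of 0.943 (0.859 to 1.03) includes 1. On the deposited RPKM, which follows total reads, the stillborn value was farther below the alive one. Whether SF3B6 differed therefore depends on the scaling. SF3A2 was the member apart as higher. It was at 1.13, 0.801 and 0.629, from 68, 81 and 43 reads, and the stillborn library was 2.01-fold higher (1.35 to 3.02). That call sits at the 2-fold limit, rests on few reads and is lost with scaling on total recovered reads.

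The hnRNPs had a median log2 ratio of -0.74 over 19 members, 17 of them below 1, and 3 were apart as lower, or 15.8% beside the 12.5% of all tested genes. HNRNPM, a regulator of alternative exons, was farthest at RPKM 9.17, 19.6 and 31.1, or 3.04-fold lower (2.71 to 3.41), with the libraries in steps. HNRNPK, which binds C-rich RNA and DNA, was at 17.6, 33.1 and 39.5 and 2.01-fold lower (1.82 to 2.23). HNRNPA2B1, a close relative of HNRNPA1, was at 7.39, 13.6 and 16.6 and 2.01-fold lower (1.90 to 2.12). In both of these the stillborn library stood alone at the low end, and both lie just past the 2-fold limit.

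Several others lay just short of it. HNRNPH1, a binder of G tracts, was at RPKM 22.4, 39.7 and 47.9 with a ratio of 0.522 (0.482 to 0.565). Its relative HNRNPF, at 1.45, 2.93 and 3.08, had a ratio of 0.526 (0.481 to 0.575), and HNRNPUL1, at 14.1, 22.3 and 30.1, one of 0.523 (0.505 to 0.542). In each the stillborn library was the lowest of the 3.

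HNRNPU, the scaffold attachment factor, was at 26.2, 44.7 and 49.5 with a ratio of 0.593 (0.569 to 0.617). HNRNPA3, at 28.1, 42.7 and 52.5, had a ratio of 0.597 (0.560 to 0.636), and HNRNPR, at 28.1, 45.5 and 48.5, one of 0.648 (0.606 to 0.692). HNRNPD, a regulator of AU-rich mRNA decay, was at 17.9, 26.1 and 33.6 (ratio 0.594, 0.567 to 0.622). HNRNPUL2, HNRNPH3, HNRNPL and HNRNPH2 had ratios of 0.595, 0.636, 0.686 and 0.731, so none of these hnRNPs reached the level of the alive library.

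The remaining hnRNPs differed less. HNRNPA1, the classical binder of exonic silencers, was at RPKM 51.9, 47.6 and 51.9 with a ratio of 1.12 (1.08 to 1.16). HNRNPC, which binds uridine tracts, was at 14.1, 16.9 and 16.6 (ratio 0.946, 0.901 to 0.993). HNRNPDL was at 11.1, 12.5 and 13.4 (ratio 0.928, 0.889 to 0.969) and HNRNPA0 at 17.5, 26.9 and 21.5 (ratio 0.906, 0.829 to 0.990). HNRNPLL, known for the splicing of CD45 in lymphocytes, was at 1.91, 2.72 and 2.02, and its ratio of 1.06 (0.888 to 1.25) includes 1. HNRNPA1 has many processed copies in primate genomes, and reads shared with such copies cannot be told apart in these values.

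SR proteins lay closer to the alive library, with a median log2 ratio of -0.25 and 9 of 11 below 1. SRSF9 was at RPKM 155, 154 and 158 with a ratio of 1.10 (1.047 to 1.15), and SRSF3 at 93.3, 129 and 115 with one of 0.905 (0.866 to 0.946). SRSF4 was at 36.5, 47.0 and 44.4 (ratio 0.918, 0.863 to 0.978). SRSF6 was at 21.8, 29.4 and 24.8, and its ratio of 0.982 (0.916 to 1.053) was the nearest to 1 of all members.

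SRSF1, the founding SR protein, was at 11.3, 16.8 and 18.1 (ratio 0.701, 0.637 to 0.772). SRSF2, a component of nuclear speckles that is mutated in myelodysplasia, was at 6.55, 9.42 and 10.0005 (ratio 0.732, 0.685 to 0.782). SRSF5, SRSF7 and SRSF11 had ratios of 0.784, 0.842 and 0.798. These 5 were therefore lower in the stillborn library by less than 2-fold, whereas SRSF10, a repressor when dephosphorylated, was higher at 3.92, 4.82 and 3.62 (ratio 1.21, 1.14 to 1.29).

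The small excesses of SRSF9, HNRNPA1 and HNRNPLL turn with the scaling: on the deposited RPKM, which follows total reads, all 3 were lower in the stillborn than in the alive library. With scaling on total recovered reads 2 of the 49 members, SRSF10 and SNRPE, kept a ratio above 1.

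SRSF12, a low-abundance SR-family repressor, was the SR gene apart. It was at RPKM 0.835, 3.04 and 2.18, from 41, 252 and 122 reads, the fewest of the family in every library, and 2.34-fold lower (1.63 to 3.42).

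Of the snRNP proteins, SNRPA, which binds a stem-loop of U1 RNA, had the lowest ratio of all members. It was at RPKM 0.437, 0.926 and 2.00, from 49, 175 and 255 reads, and 4.09-fold lower (3.002 to 5.67). SNRPC, which steadies U1 on the 5′ splice site, was at 5.30, 6.85 and 8.47 with a ratio of 0.700 (0.622 to 0.786). The U2 proteins were closer together, SNRPA1 at 17.9, 18.1 and 28.5 (ratio 0.703, 0.630 to 0.783) and SNRPB2 at 16.3, 21.0 and 26.3 (ratio 0.692, 0.598 to 0.7995).

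The Sm ring was uneven, with a median log2 ratio of -0.30 and 6 of 7 below 1. SNRPB was apart as lower at RPKM 1.86, 3.13 and 5.06, or 2.44-fold lower (1.85 to 3.24), and SNRPD3, at 47.0, 61.1 and 92.4, had a ratio of 0.569 (0.514 to 0.629). SNRPD2 was at 115, 92.3 and 155 (ratio 0.832, 0.780 to 0.888), SNRPD1 at 58.1, 51.9 and 78.1 (ratio 0.830, 0.7504 to 0.918) and SNRPF at 37.96, 41.0 and 64.1 (ratio 0.661, 0.576 to 0.759), each lowest in a library of a loss. SNRPE went the other way at 5.16, 3.48 and 3.66 (ratio 1.57, 1.15 to 2.16), from 94, 107 and 76 reads. For SNRPG, at 1.13, 1.84 and 1.58, the ratio of 0.802 (0.606 to 1.06) includes 1.

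Both U2AF subunits were lower. U2AF1, which contacts the AG, was at RPKM 6.15, 9.92 and 12.4 with a ratio of 0.555 (0.485 to 0.634). U2AF2, which binds the polypyrimidine tract, was apart at 0.511, 0.986 and 1.19, from 56, 182 and 148 reads, and 2.08-fold lower (1.52 to 2.88).

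**Figure D2:**
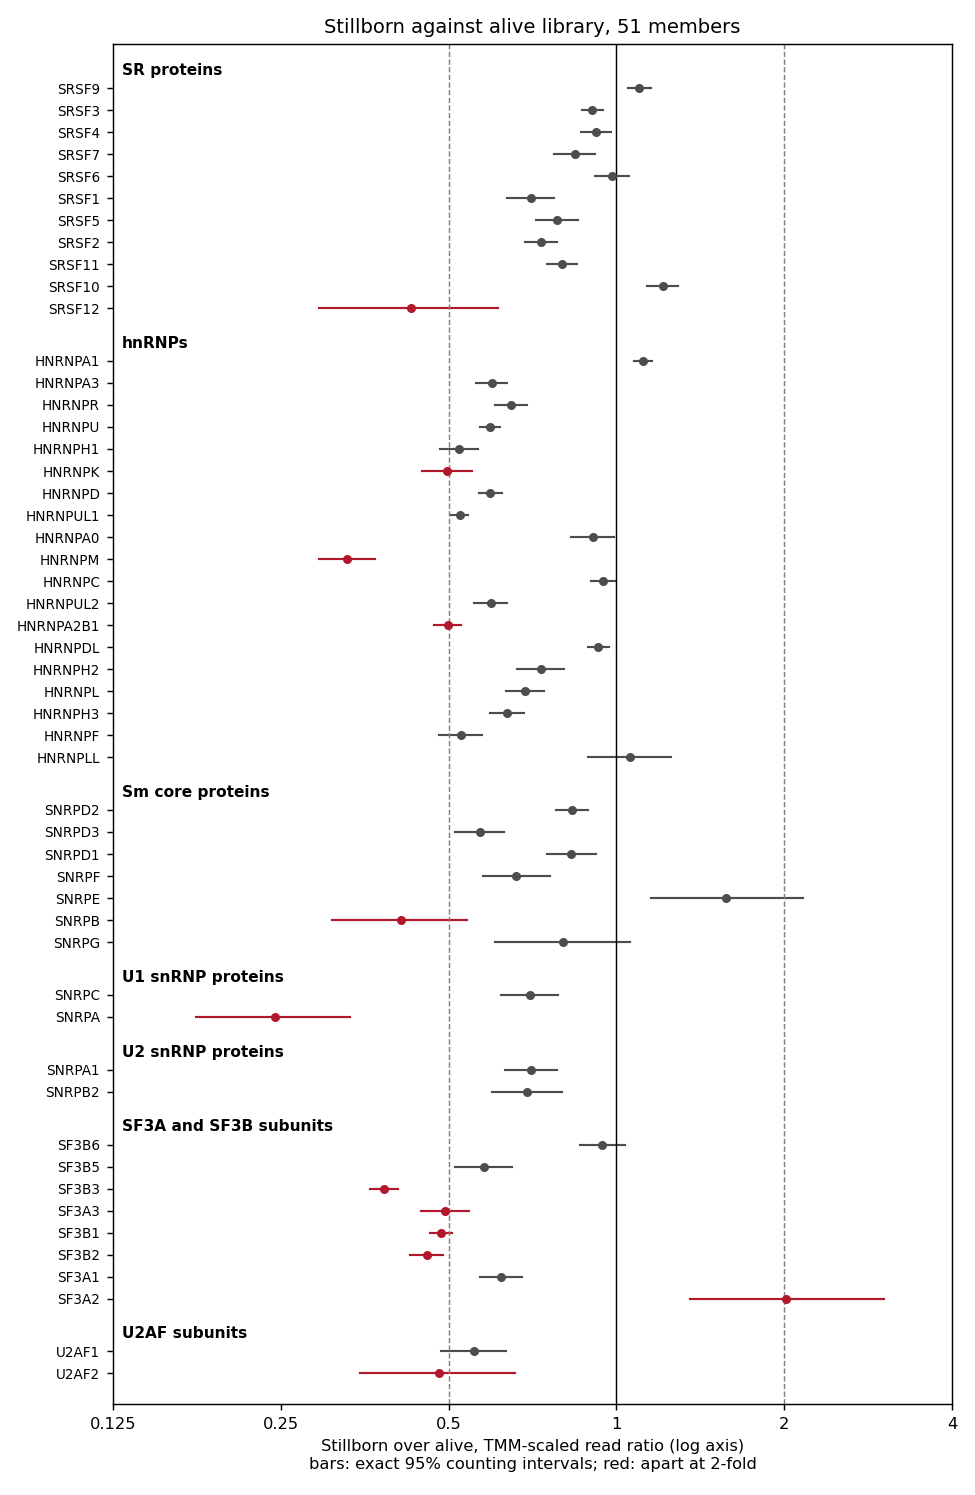
TMM-scaled read ratio of the stillborn over the alive library (log axis) for 51 members by role, with exact 95% counting intervals; dashed lines mark 2-fold, and members apart at 2-fold are red. Red points lie left of the lower dashed line for 11 members, with SNRPA farthest at 0.245, and SF3A2 is the red point on the right at 2.01.

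Markers of dividing cells and of other cell types also differed between the libraries, in both directions. Of 12 proliferation markers 11 were apart as lower for stillborn against alive and 0 as higher. Beside them stand 12.5% and 13% of all tested genes, as for each marker list that follows. The summed RPKM of the proliferation markers was 63.8, 172 and 216. Leukocyte markers summed to 71.4, 16.02 and 25.9 over 9 genes, with 7 of 8 tested apart as higher, GZMB apart as lower (ratio 0.239, 0.161 to 0.346), CD3E at 0 in every library and S100A8 at 0 in the alive one. Squamous markers summed to 802, 333 and 176 over 5 genes, most of it KRT6A. For stillborn against alive, KRT6A, SPRR3 and CRNN were apart as higher, whereas KRT4 and KRT13 had ratios of 1.11 and 1.37. Fibroblast markers summed to 3512, 3674 and 2454 over 6, most of it VIM, whose ratio was 1.61. Of these 6, COL1A2 was apart as higher (ratio 2.51), and LUM had a ratio of 1.57. COL3A1 and COL1A1 had ratios of 1.10, and DCN was lower at 0.698. Epithelial markers summed to 485, 729 and 869 over 6, most of it KRT19. Of these 6, KRT5 and KRT8 were apart as lower, whereas EPCAM was apart as higher (ratio 2.35, 1.97 to 2.80) and CDH1 had a ratio of 1.52 (1.33 to 1.73). Their part in the members' ratios was not tested.

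All 52 names were found in the RefSeq gene table of the assembly mChlSab1.0.hap1, where 7 overlap another gene, among them HNRNPK, SF3B1, SF3B2 and SF3B3. These are overlaps of whole gene spans, and overlap of exons was not examined. The strand setting is not stated, so whether reads of such genes were mixed cannot be told.

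The spontaneous abortion library was then set against the same alive library. The members lay closer together here, with a median log2 ratio of -0.21, beside -0.01 over all genes, and 37 of the 49 had a ratio below 1, beside 50.4%. SNRPA was the 1 member apart as lower, at 2.10-fold (1.72 to 2.56), beside 5.71% of 13750 genes, and 0 were apart as higher, beside 7.67%. Among genes whose mean RPKM reached 1 these shares were 3.08% and 4.14%.

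The U1 proteins, SNRPA and SNRPC, had a median of -0.63. The SF3 subunits and the Sm ring had medians of -0.58 and -0.56 over 7 members each, with 6 of 7 below 1 in both. SNRPD2 had a ratio of 0.612 (0.577 to 0.650), SNRPF one of 0.658 (0.586 to 0.739), SNRPD3 one of 0.680 (0.628 to 0.737) and SNRPD1 one of 0.683 (0.624 to 0.747). SF3B2 was at 0.567 (0.538 to 0.598) and SF3B3 at 0.579 (0.556 to 0.603), whereas for SF3B6 the ratio of 1.07 (0.989 to 1.16) includes 1.

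SR proteins had a median of 0.12, with 7 of 11 above 1, or 6 with scaling on total recovered reads. SRSF12 had a ratio of 1.43 (1.15 to 1.80), SRSF10 one of 1.37 (1.30 to 1.44), SRSF6 one of 1.22 (1.15 to 1.29) and SRSF3 one of 1.15 (1.11 to 1.195). SRSF9 was the member nearest to 1, at 1.004 (0.963 to 1.048). The hnRNPs had a median of -0.16, from HNRNPM at 0.649 (0.602 to 0.699) to HNRNPLL at 1.38 (1.203 to 1.596).

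Between the 2 losses, the stillborn library was mostly the lower one. The median log2 ratio of the members was -0.39, beside -0.02 over all genes, and 42 of the 49 had a ratio below 1, beside 52%. SRSF12 was the 1 member apart as lower, at 3.35-fold (2.40 to 4.79), beside 7.52% of 13755 genes, and 0 were apart as higher, beside 7.53%. Among genes whose mean RPKM reached 1 these shares were 3.93% and 4.58%.

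With scaling on total recovered reads 4 members were apart as lower, beside 9.73% of all tested genes. The medians were then -0.52 for the members and -0.15 for all genes. The calls over all genes then went from 1036 higher and 1035 lower to 867 and 1339.

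The hnRNPs had a median of -0.50 with 18 of 19 below 1, and the SR proteins one of -0.31 with 10 of 11. HNRNPM had a ratio of 0.508 (0.452 to 0.570), HNRNPF one of 0.540 (0.496 to 0.588) and HNRNPK one of 0.578 (0.522 to 0.638). The Sm ring lay at 0.01, or at -0.12 with scaling on total recovered reads. SNRPE at 1.61 (1.21 to 2.14), SNRPD2 at 1.36 (1.27 to 1.45) and SNRPD1 at 1.22 (1.10 to 1.34) were on its high side, and SNRPB at 0.645 (0.484 to 0.850) on its low side. SNRPF was nearest to 1 of all members, at 1.01 (0.874 to 1.16).

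Gene length moved with the ratios in 2 of the 3 comparisons. Across the 49 members, which share the same libraries, Spearman's rho between recovered length and log2 ratio was -0.28 between the losses, and across 10210 genes it was -0.21. For spontaneous abortion against alive the sign was the opposite, at 0.20 and 0.15, and for stillborn against alive the values were -0.05 and -0.06. The part of length in the ratios was not tested.

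**Figure D3:**
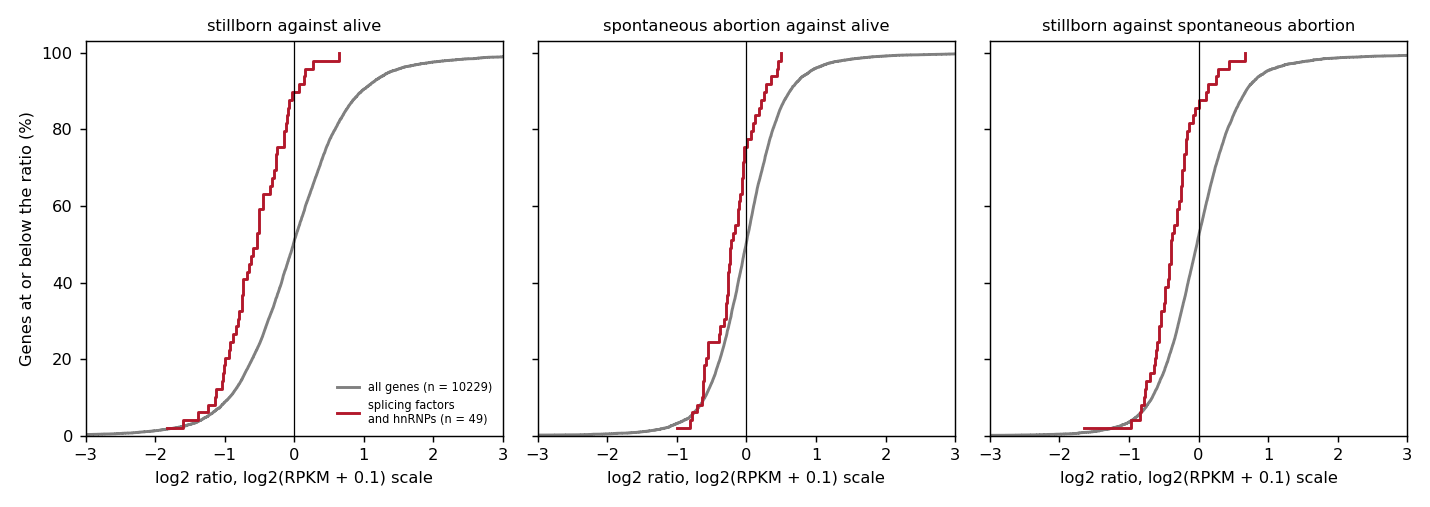
Cumulative share of genes (%) by log2 ratio on the log2(RPKM + 0.1) scale for the 3 pairs of libraries, shown from -3 to 3; red is the 49 members and grey all 10229 genes whose mean RPKM reached 1. The red curve crosses its midpoint left of the grey one in each panel, with medians of -0.54, -0.21 and -0.39.

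By TMM-scaled RPKM from low to high, 31 of the 49 members stood in the order stillborn, spontaneous abortion, alive, beside 27.3% of all genes. They included 15 of 19 hnRNPs and 6 of 7 SF3 subunits but 4 of 11 SR proteins. A further 9, among them SRSF3, SRSF4, SRSF6 and SRSF7, were lowest in the stillborn and highest in the spontaneous abortion library. SNRPA1, SNRPD1, SNRPD2 and SNRPF were lowest for spontaneous abortion and highest for alive. HNRNPA1 and SNRPE were lowest for spontaneous abortion and highest for stillborn. HNRNPLL and SRSF10 were lowest for alive and highest for spontaneous abortion. SRSF9 was the 1 member in the reverse order, which held 24.8% of all genes, and its deposited values had a coefficient of variation of 1.197%.

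**Figure D4:**
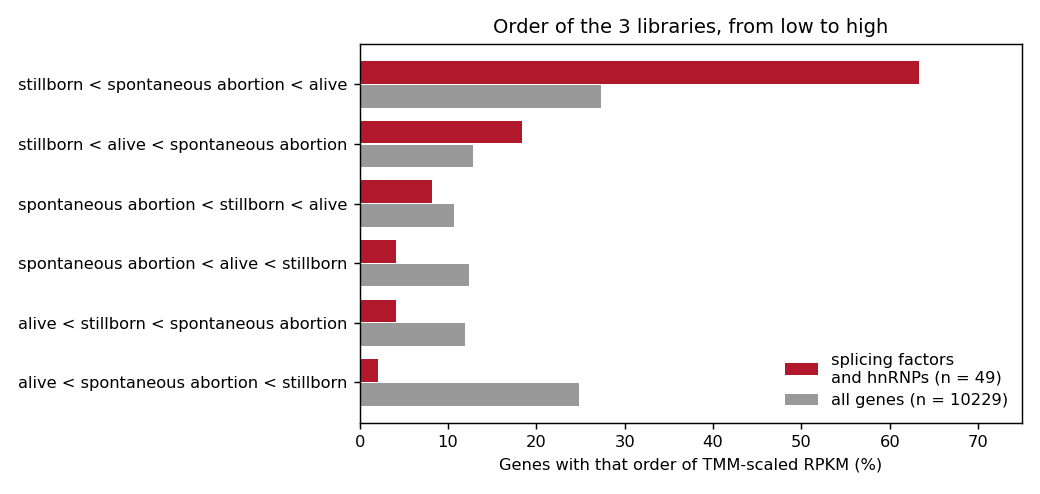
Share of genes (%) in each of the 6 possible orders of the libraries by TMM-scaled RPKM, for the 49 members (red) and all 10229 genes whose mean RPKM reached 1 (grey). The order stillborn, spontaneous abortion, alive holds 31 members, and its reverse holds 1.

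The wider splicing machinery was taken from lists of pathway genes that are no members. Of 59 tested other spliceosome proteins, 14 were apart as lower and 2 as higher for stillborn against alive, or 23.7% and 3.39%, beside 12.5% and 13% of all tested genes. Their median log2 ratio was -0.25. PRPF8, the core of the U5 snRNP, was at RPKM 18.4, 35.9 and 60.7 and 2.96-fold lower (2.83 to 3.10). SNRNP200, the helicase that unwinds U4 from U6, was at 8.05, 20.7 and 29.7 and 3.31-fold lower (3.08 to 3.55). Both followed the order of most members.

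XAB2 was 3.32-fold lower (2.65 to 4.20), CHERP 2.72-fold lower (2.27 to 3.29), the U1 protein SNRNP70 2.52-fold lower (1.81 to 3.58) and SNRNP35 of the minor spliceosome 2.51-fold lower (2.02 to 3.13). The 2 apart as higher, PRPF18 with a ratio of 2.02 (1.69 to 2.43) and SNRNP25 with 2.00 (1.75 to 2.30), are named after their values were seen. Both calls sit at the 2-fold limit. On the deposited RPKM, at 3.54 against 1.95 for PRPF18 and 16.7 against 9.28 for SNRNP25, neither reaches it. CWC15, at 58.3, 58.7 and 65.8, and CDC5L, at 42.5, 58.4 and 65.8, were with PRPF8 the most abundant of the list. Against the alive library, SNRNP35 and U2AF1L4 were apart as lower for spontaneous abortion, with ratios of 0.335 (0.278 to 0.404) and 0.459 (0.379 to 0.554). Between the losses, SNRNP200 (ratio 0.422, 0.393 to 0.453) and ZMAT5 (ratio 0.374, 0.169 to 0.747) were apart as lower in the stillborn library.

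Of 45 tested other splicing regulators, 6 were apart as lower and 2 as higher for stillborn against alive, or 13.3% and 4.44%. The share apart as lower is near the 12.5% of all tested genes. Their median was -0.45. PTBP1, the polypyrimidine tract repressor, was at RPKM 6.14, 14.0 and 18.7 and 2.72-fold lower (2.54 to 2.91), and also apart between the losses (ratio 0.477, 0.446 to 0.510). RBM10 and CELF4 had ratios of 0.421 (0.369 to 0.479) and 0.318 (0.159 to 0.593).

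EWSR1 was also apart as lower (ratio 0.455, 0.425 to 0.487), and ESRP2, an epithelial splicing regulator, was apart as higher (ratio 2.08, 1.80 to 2.40). The ESRP2 call lies near the 2-fold limit. ELAVL4, a neuronal RNA-binding protein, was the other gene apart as higher in the stillborn library, against both others, with 32, 1 and 0 reads, too few for a useful ratio. MSI1, with 5, 30 and 12 reads, was apart as lower in the stillborn library between the losses, and CELF4 as lower for spontaneous abortion against alive (ratio 0.347, 0.208 to 0.566). YBX1, an mRNA-packaging protein and the most abundant of this list, was at 433, 284 and 268 (ratio 1.80, 1.77 to 1.84). PCBP1 was at 139, 146 and 152 (ratio 1.02, 0.981 to 1.07) and RBM39 at 44.5, 71.3 and 56.3 (ratio 0.883, 0.831 to 0.938).

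SR-related proteins had a median of -0.43, and ACIN1 was the 1 of 18 apart, at 2.21-fold (2.05 to 2.39) lower. PNN was at RPKM 14.8, 20.6 and 23.5, THRAP3 at 8.78, 14.8 and 17.996 and SRRM2, a scaffold of nuclear speckles, at 9.51, 13.4 and 18.5. In the exon junction complex list RBM8A, a core subunit, at 12.9, 21.4 and 33.2, and UPF1, the helicase of nonsense-mediated decay, at 0.407, 0.664 and 1.13, were the 2 of 12 apart as lower, with a median of -0.34. CASC3 was at 30.1, 41.3 and 42.6 and the export factor NXF1 at 14.0, 20.1 and 23.4. The shares apart as lower were 5.56% for SR-related proteins and 16.7% for the exon junction complex, beside 12.5% of all tested genes. In both lists 0 were apart as higher, beside 13%.

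Of the snRNP assembly and import list 3 of 18 were apart as lower, GEMIN4 (ratio 0.310, 0.201 to 0.466), WDR77 (ratio 0.426, 0.346 to 0.523) and GEMIN5 (ratio 0.473, 0.428 to 0.521), and COPRS as higher (ratio 2.36, 2.01 to 2.77), with a median of -0.24. These shares were 16.7% as lower and 5.56% as higher, beside 12.5% and 13% of all tested genes. GEMIN4 was also apart between the losses (ratio 0.314, 0.206 to 0.465). CLNS1A, an assembly chaperone of Sm proteins, was at RPKM 47.6, 48.6 and 55.6, the import receptor KPNB1 at 27.4, 43.3 and 56.5 and COIL at 13.3, 17.0 and 16.9.

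SR kinases and phosphatases and LSm proteins had medians of 0.04 and -0.01, or -0.13 and -0.18 with scaling on total recovered reads. PPP1CA was the 1 of 10 kinases and phosphatases apart, as lower, at RPKM 11.3, 20.7 and 29.7, whereas its relative PPP1CC was at 97.1, 83.2 and 74.6 and PPP2CA at 141, 139 and 122. Of 13 LSm genes, LSM7 (ratio 0.424, 0.322 to 0.554) and LSM11 (ratio 0.386, 0.306 to 0.484) were apart as lower, and LSM7 was also apart for spontaneous abortion (ratio 0.460, 0.371 to 0.569). For stillborn against alive the shares apart as lower were 10% of kinases and phosphatases and 15.4% of LSm proteins, beside 12.5% of all tested genes. For spontaneous abortion the LSm share was 7.69%, beside 5.71%. LSM12 was at 67.3, 67.4 and 53.8, LSM3 at 55.5, 51.5 and 40.1 and LSM4 at 39.0, 41.1 and 54.9.

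For the 49 splicing factors and hnRNPs the medians of the 3 comparisons, stillborn against alive, spontaneous abortion against alive and between the losses, were -0.54, -0.21 and -0.39. Those of 68 cytosolic ribosomal protein genes were 0.18, -0.28 and 0.52, and those of 46 proteasome genes -0.23, -0.19 and -0.04. With scaling on total recovered reads the first ribosomal median was 0.00. The comparisons share libraries, and the differences between these families were not tested.

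**Figure D5:**
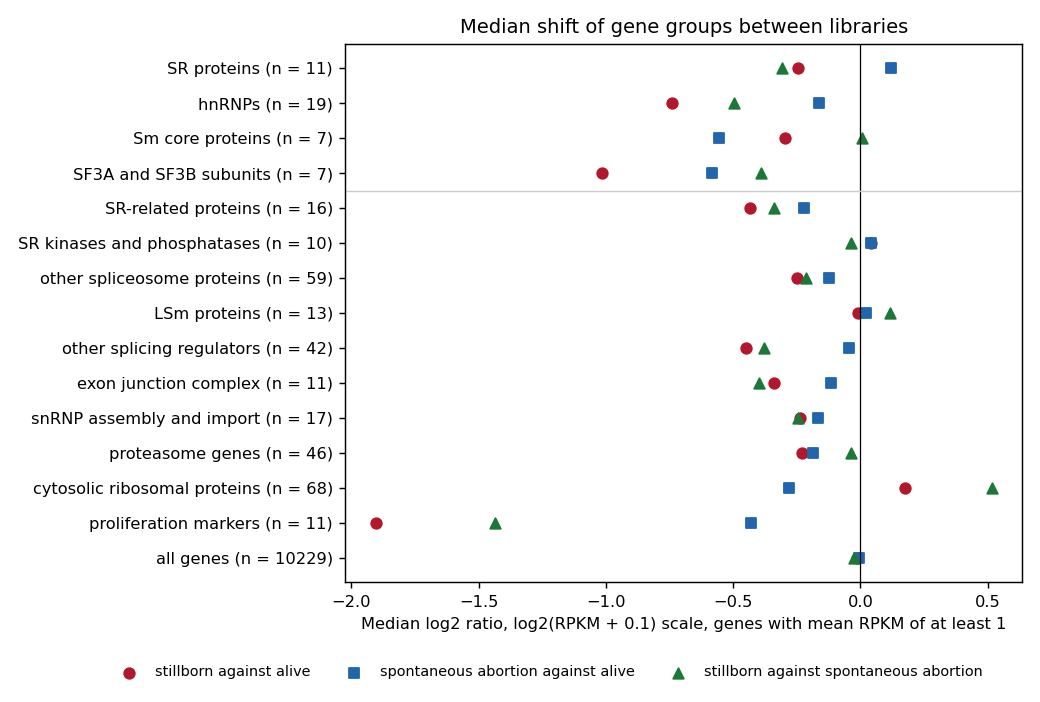
Median log2 ratio on the log2(RPKM + 0.1) scale for role groups of the members (above the grey line) and other gene lists (below it), with circles for stillborn against alive, squares for spontaneous abortion against alive and triangles for stillborn against spontaneous abortion; n is the number of genes whose mean RPKM reached 1. For stillborn against alive, SF3 subunits lie at -1.02, hnRNPs at -0.74, LSm proteins at -0.01 and proliferation markers at -1.90.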

How the data were processed

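RNA came from a circulating nucleic acid kit (QIAGEN) and was amplified by the SPIA chemistry, per the labels' protocols. Tools named in the submitters' processing notes are bcl2fastq (2.17), STAR and HTSeq. Other versions, the build, the annotation and strandedness were not given in the sources used here. Values deposited by the authors are RPKM. Library totals and gene lengths that turn them into whole reads were solved for, and 99.5% of the 23276 genes above 0 gave whole reads, within 1.2 times the rounding error. Any divisor shared by a gene's 3 read numbers is invisible, so these are lower bounds. TMM factors were 0.937 (stillborn), 1.02 (spontaneous abortion) and 1.047 (alive). On simulated data (23150 genes), 3 of 3 totals were recovered. Of 17350 genes present in all libraries 93.3% got the right read numbers, and 0 got too many. For stillborn against alive, 100% of 200 genes changed 3-fold and 25 of 12815 unchanged genes were called. The changed genes had at least 100 reads over both libraries, and the simulation held counting error only. Recovery of changes in genes with fewer reads, and the spread between animals, were therefore not covered.

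Read ratios carry exact Clopper-Pearson intervals given the reads of both libraries together. There are no molecular identifiers. The members and lists were chosen with earlier results of these data known. By rule, ratios are given for members apart at 2-fold, the 3 highest and 2 lowest of each role group and the member nearest to 1 in each pair. Other lists are given by their 3 highest genes and up to 6 apart per pair, and some of these genes are not reported here. Alternatives were other scalings, thinning, fold limits, read minimums, pseudocounts and level filters. Python 3.11.15, numpy 2.4.6 and scipy 1.17.1 were used. No sequences are printed.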

Additional observations from a re-analysis of the deposited data

How the results depend on the processing

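No paired analysis was possible because each status has 1 library. The median log2 ratio of the members stayed below 0 in all 3 pairs under each of 6 alternatives. With scaling on total recovered reads it moved to -0.71 for stillborn against alive (from -0.54) and to -0.52 between the losses (from -0.39). Both moves exceeded the median half-width of a single member's counting interval, which is not the error of the median. With that scaling the members apart as higher for stillborn against alive went from 1 to 0, beside 10.6% of all tested genes. Those apart as lower between the losses went from 1 to 4, beside 9.73%. With a fold limit of 1.5 the members apart as lower were 25 for stillborn against alive (11 at 2-fold), 9 for spontaneous abortion against alive (1) and 13 between the losses (1), beside 23.6%, 13.1% and 17.1% of all tested genes. Those apart as higher were then 2 for stillborn against alive (1) and 2 between the losses (0), beside 22.8% and 15.6%. With a fold limit of 4 the members apart as lower were 1, 0 and 0, beside 3.25%, 1.51% and 1.66%. At that limit 0 were apart as higher for stillborn against alive, beside 4.7%. With at least 100 reads SF3A2 was no longer counted, which left 0 as higher for stillborn against alive, beside 9.81%. After thinning to the lowest depth, 8 members were apart as lower for stillborn against alive, beside 12%. Of the 14 ratios of members apart, 7 moved outside their counting interval with scaling on total recovered reads, and none turned direction. The order stillborn, spontaneous abortion, alive, counted after seeing the data, held 33 members (34.4% of all genes) with scaling on total recovered reads and 31 (28%) with median-of-ratios scaling, against 31 (27.3%) with TMM. With few reads, as for SF3A2, SNRPE and SRSF12, intervals are wide.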

Other observations

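Ratios between partner genes within a library do not depend on how libraries are scaled. The pairs were chosen after their values were seen, and their intervals, from the normal approximation to the log odds ratio, cover counting error only. Values are in the order stillborn, spontaneous abortion, alive. The RPKM ratio of HNRNPA1 to HNRNPA2B1, paralogs with related RNA-binding domains, was 7.02, 3.497 and 3.14, and the stillborn value over the alive one was 2.24 (2.09 to 2.39). For SF3A2 to SF3A3, subunits of one complex, the ratio was 0.0824, 0.0406 and 0.0202, a quotient of 4.09 (2.76 to 6.06). For SF3B6 to SF3B3 it was 3.30, 2.47 and 1.34, a quotient of 2.46 (2.21 to 2.74), and for SNRPE to SNRPF 0.136, 0.0849 and 0.0571, a quotient of 2.38 (1.71 to 3.32). In these 4 pairs the first gene was higher, relative to its partner, in the stillborn than in the alive library.

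Smaller differences in the same direction were found for SNRPD2 to SNRPD3, with a quotient of 1.46 (1.30 to 1.65), SF3A1 to SF3A3, with 1.26 (1.11 to 1.44), and SRSF9 to SRSF3, with 1.21 (1.14 to 1.29). SRSF3 to SRSF7, related SR proteins that also serve mRNA export, stood at 4.33, 4.08 and 4.03, with a quotient of 1.07 (0.978 to 1.18). U2AF1 to U2AF2, which form one dimer, stood at 12.03, 10.1 and 10.4, with a quotient of 1.15 (0.825 to 1.61). The intervals of these last 2 quotients include 1.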
